A study of Mus musculus with 8 samples.

Results

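The Egr and Nr4a genes are 7 inducible transcription factors, Egr1, Egr2, Egr3, Egr4, Nr4a1, Nr4a2 and Nr4a3, taken by gene name from the 45706 genes measured in ribosome-associated mRNA of PV+ interneurons of the somatosensory cortex. All 7 were in the files and all 7 passed the filter on low counts, which 17495 genes passed. PV+ interneurons, the fast-spiking inhibitory neurons that contain parvalbumin, were driven with CNO in 4 samples and received vehicle in 4 samples. None of the 7 genes passed an adjusted p of 0.05. Nr4a1 had the largest difference of the 7, 1.60-fold higher in the CNO-treated samples, and it was the only member at an unadjusted p under 0.05. Fos, the textbook marker of recent neuronal activity, was 1.93 higher on the log2 scale in the same samples. Its adjusted p was 0.0520 by the quasi-likelihood test of edgeR, so it did not pass 0.05 by that test either. At the cut-offs given below, that test called 0 of the 17495 genes, and the alternative tests called 12 and 10. The study, with its own fit of these samples, listed Fos among its upregulated genes.

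Mice of the genotype PvalbFlp/+;Neurod6Cre/+ had been injected in S1 at postnatal day 1 with an AAV that carries HA-tagged RPL10a and myc-tagged hM3Dq behind Flp and Cre sites and were used between postnatal days 42 and 70. Flp, made in cells that use the Pvalb gene, turns on the viral cassette, and Cre, made in pyramidal cells through Neurod6, removes it. The cassette makes a tagged ribosomal protein, used to pull down ribosomes, together with hM3Dq, a designer receptor that raises the activity of a neuron when CNO binds it. Mice received 5 injections of CNO at 1 mg/kg, or of vehicle, over about 48 h. Both groups therefore carried the virus and the receptor, and differed in the agent given. Each sample was pooled from 4 brains, so that differences between single mice are not visible, and the last injection fell on the morning of the experiment. CNO without the receptor was not among the samples.

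Egr proteins are zinc-finger transcription factors that bind GC-rich sites, and Nr4a proteins are orphan nuclear receptors that act without a known hormone. Both families are immediate early genes. In neurons, calcium entry and kinase signalling act through CREB and through the serum response factor on their promoters, so that their mRNA climbs soon after a burst of activity and then declines. The transcripts are short-lived, and Egr1, Nr4a1 and Fos are widely used as marks of recently active cells. In the cortex, Egr1 is also abundant in resting pyramidal cells.

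The samples held 44064161 to 49413273 estimated counts each, so that 3 counts corresponded to 0.0607 to 0.0681 CPM, counts scaled to the size of the library. Members were measured with 102 counts in the sample with the fewest, for Nr4a3, and with 14830 in the sample with the most, for Egr1. CPM values below were normalized by TMM, a scaling between libraries that leaves out the most extreme genes, and TPM values are divided by transcript length as well. The labelled cell type was checked against its markers. Pvalb averaged 907 TPM, and Slc17a7, the glutamate transporter of pyramidal cells, averaged 433 TPM, so that a defining pyramidal cell marker was also present. Vehicle replicate 1 stood apart, with 1186 TPM summed over 11 PV+ interneuron markers, against 2923 to 3154 in the other vehicle samples and 2554 to 3960 in the CNO-treated samples. Without vehicle replicate 1, no member passed an adjusted p of 0.05 either.

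The promoters of the members for which the ratios described below separated the groups are shown here, because the motifs in them are those through which immediate early genes are known to be switched on. RefSeq windows on GRCm38.p6 were at hand for 5 of the 7 members, and not for Egr1 and Egr3. Each window covers 300 bases around an annotated start site, and the 250 bases before the start site are printed, 5′ to 3′ on the strand of the gene. Capitals mark matches to the core of the CRE, the site of CREB, written TGACG, to the CArG box, the site of serum response factor, or to the EGR site, written GCGNGGGCG, each on either strand.
Nr4a1, chr15:101266596-101266845, plus strand: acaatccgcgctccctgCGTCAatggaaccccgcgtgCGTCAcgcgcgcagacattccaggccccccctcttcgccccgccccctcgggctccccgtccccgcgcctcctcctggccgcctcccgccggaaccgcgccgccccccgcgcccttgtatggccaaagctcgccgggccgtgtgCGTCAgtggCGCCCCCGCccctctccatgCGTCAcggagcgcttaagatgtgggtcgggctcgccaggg
Nr4a2, chr2:57124004-57124253, minus strand: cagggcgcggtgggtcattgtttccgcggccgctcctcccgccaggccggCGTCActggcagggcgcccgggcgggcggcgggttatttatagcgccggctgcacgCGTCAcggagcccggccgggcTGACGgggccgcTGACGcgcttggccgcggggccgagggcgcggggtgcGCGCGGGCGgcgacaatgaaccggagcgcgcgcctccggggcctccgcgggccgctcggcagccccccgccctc
Egr4, chr6:85513590-85513839, minus strand: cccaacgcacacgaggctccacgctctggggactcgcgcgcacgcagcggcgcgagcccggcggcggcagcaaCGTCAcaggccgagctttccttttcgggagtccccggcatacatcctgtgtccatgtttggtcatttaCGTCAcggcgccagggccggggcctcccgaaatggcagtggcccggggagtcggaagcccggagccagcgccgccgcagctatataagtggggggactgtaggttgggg
Egr2, chr10:67537619-67537868, plus strand: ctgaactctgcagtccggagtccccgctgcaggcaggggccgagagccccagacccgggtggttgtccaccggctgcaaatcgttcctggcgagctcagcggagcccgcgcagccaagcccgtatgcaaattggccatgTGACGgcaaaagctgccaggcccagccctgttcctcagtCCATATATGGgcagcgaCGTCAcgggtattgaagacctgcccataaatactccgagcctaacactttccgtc

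The CRE core was found 4 times in each of the Nr4a1, Nr4a2 and Nr4a3 windows and 2 times in the Egr4 window and in the Egr2 window shown. Of 32851 promoter windows of the same length, 20.8% held it at least 1 time, 5.01% at least 2 times and 0.231% at least 4 times. An EGR site was present 1 time in the Nr4a1 window and 1 time in the Nr4a2 window, as in 5.55% of all windows, and the CRE core and an EGR site stood together in 1.65% of windows. The Nr4a1, Nr4a2 and Nr4a3 windows were 72.3%, 81.7% and 64.7% G or C. The shares over all windows were not matched for this content. The CArG box was present in the Egr2 window, as in 1.63% of windows. The full CRE, TGACGTCA, was in none of the members' windows (1.79% of all windows), nor was the AP-1 site TGANTCA (7.81%) or the NBRE AAAGGTCA, the site that Nr4a proteins bind as monomers (1.51%). The full CRE contains the CRE core, so those counts overlap. Egr2 has 5 windows in RefSeq, of which window 3 was chosen for printing. Windows 4 and 5 held the same number of matches, 2 to the CRE core and 1 to the CArG box. Window 2 held the CArG box and no CRE core, and window 1 held no match to any of these motifs. Nr4a1 has further transcripts that start upstream of the window shown. These matches describe letters in the reference sequence. Binding was not measured.

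**Figure D1:**
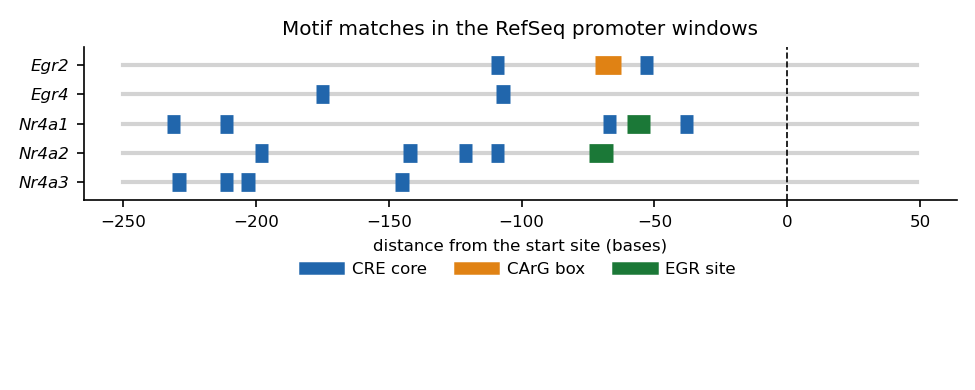
Matches to the CRE core, the CArG box and the EGR site in 1 RefSeq window of each of 5 members, for Egr2 the window printed above. The horizontal axis is the distance from the start site in bases, each grey line is 1 window, the dashed line is the start site and each coloured block is 1 match; the Nr4a1, Nr4a2 and Nr4a3 windows hold 4 CRE cores each.

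On the GRCm38 assembly the 7 genes lie apart from each other. Egr1 (ENSMUSG00000038418) lies on chromosome 18, from 34859823 to 34864984, Egr2 (ENSMUSG00000037868) on chromosome 10, from 67535475 to 67542188, Egr3 (ENSMUSG00000033730) on chromosome 14, from 70077203 to 70082614, and Egr4 (ENSMUSG00000071341) on chromosome 6, from 85511121 to 85513589. Nr4a1 (ENSMUSG00000023034) lies on chromosome 15, from 101254269 to 101274795, Nr4a2 (ENSMUSG00000026826) on chromosome 2, from 57106830 to 57124003, and Nr4a3 (ENSMUSG00000028341) on chromosome 4, from 48045153 to 48086447. All 7 are protein-coding, Egr4 and Nr4a2 are on the minus strand, and no annotated gene on either strand overlaps any of them. The Egr genes are compact, with at most 4 exons in any annotated transcript, while each Nr4a gene has a transcript with 8 exons. Stretches of 31 bases shared with transcripts of other genes made up at most 0.523% of the stretches of any member.

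Compared per transcript length, Egr1 was by far the most abundant member. Its level was 184 ± 42.4 TPM in the CNO-treated samples and 184 ± 48.8 TPM in the vehicle samples (SD, n = 4 each), above 95.1% of the genes tested. In the vehicle samples Nr4a2 followed with 43.9 ± 5.30 TPM, then Egr4 with 30.9 ± 4.32 TPM, Nr4a1 with 27.8 ± 3.35 TPM and Egr3 with 24.0 ± 2.34 TPM. Egr2, at 6.60 ± 1.44 TPM, and Nr4a3, at 3.35 ± 1.02 TPM, were the least abundant. The Egr1 values lay above those of every other member in every sample, and in the vehicle samples the neighbours Egr4 and Nr4a1, and Nr4a1 and Egr3, overlapped, while Egr3 with Egr2 and Egr2 with Nr4a3 did not. The vehicle values of Nr4a2, 36.2 to 48.4 TPM, were above all those of Egr4, 25.5 to 35.8 TPM, by a narrow margin. In the CNO-treated samples the averages of Nr4a1 (42.8 ± 16.0 TPM), Egr4 (36.02 ± 7.80 TPM) and Nr4a2 (35.7 ± 8.69 TPM) lay within each other's spread. Thus the order of Nr4a1 and Nr4a2 by mean TPM was not the same in both groups.

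**Figure D2:**
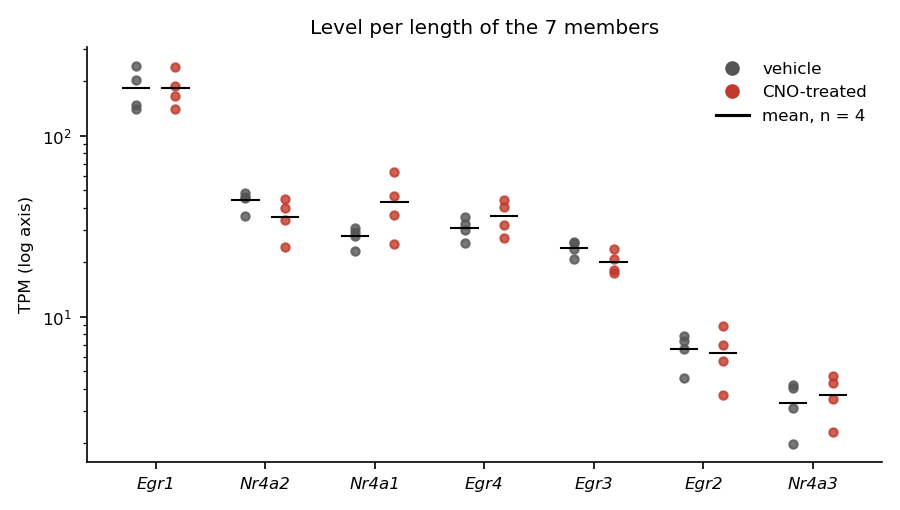
TPM of the 7 members in each sample on a log axis, in order of their mean over all 8 samples, with vehicle in grey, CNO-treated in red and a black line at the mean of 4 samples. Egr1 averages 184 TPM in both groups and Nr4a3, the lowest, 3.35 TPM with vehicle and 3.70 TPM with CNO.

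Egr1 (also known as Zif268), whose induction accompanies lasting synaptic plasticity, was at 198, 313, 235 and 277 CPM in CNO-treated replicates 1 to 4. In vehicle replicates 1 to 4 it was at 307, 275, 197 and 196 CPM. The groups overlapped over nearly their whole range, with the lowest vehicle samples next to the lowest CNO-treated sample. The log2 fold change was 0.07 (SE 0.18, 95% interval -0.34 to 0.48), with an adjusted p of 0.921 by the quasi-likelihood test of edgeR. The direction turned when CNO-treated replicate 2, vehicle replicate 3 or vehicle replicate 4 was left out (-0.041, -0.018 and -0.020). In the vehicle group, replicates 1 and 2, which had the highest Egr1, also had the highest sums of 11 pyramidal cell markers, 2347 and 2223 TPM against 1658 and 1773 TPM in replicates 3 and 4. In CNO-treated replicates 1 to 4 the same sums were 1666, 2023, 1757 and 1472 TPM. There, replicate 4 had the lowest sum but more Egr1 than replicates 1 and 3. The part of pyramidal cells in the Egr1 values was not tested. With the mean log2 level of the PV+ markers less that of the pyramidal markers added to the model, the log2 fold change of Egr1 was 0.28 (adjusted p = 1.00).

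Egr2, better known for its role in myelinating Schwann cells and in the hindbrain, was at 4.73, 8.49, 7.58 and 12.2 CPM in CNO-treated replicates 1 to 4, and at 7.87, 9.86, 9.62 and 5.67 CPM in the vehicle replicates. Both the lowest and the highest of the 8 samples were CNO-treated. The group means were nearly equal, 8.24 ± 3.07 and 8.26 ± 1.94 CPM, and the log2 fold change was -0.0023 (SE 0.26, 95% interval -0.58 to 0.58, adjusted p = 0.999). Its sign was different in 8 of 22 alternative settings, and the interval reached up to 1.49-fold.

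Egr3, a relative of Egr1 that is needed for muscle spindles to form, varied little between samples. It was at 10.6, 13.0, 12.3 and 10.6 CPM in the CNO-treated replicates and at 13.5, 11.7, 13.8 and 14.0 CPM in the vehicle replicates. Only vehicle replicate 2 fell within the range of the CNO-treated samples. Its log2 fold change was -0.19 (SE 0.11, 95% interval -0.44 to 0.05), and the adjusted p was 0.817 by edgeR. Without vehicle replicate 2 the log2 fold change was -0.26.

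Egr4, the member found mostly in the nervous system, was at 25.4, 38.5, 30.4 and 38.9 CPM in the CNO-treated replicates. It was at 27.1, 31.9, 27.8 and 22.4 CPM in the vehicle replicates. CNO-treated replicates 2 and 4 were above every vehicle sample, and replicates 1 and 3 lay among them. For Egr4 the log2 fold change was 0.29 (SE 0.15, 95% interval -0.05 to 0.62), with an adjusted p of 0.817 by the edgeR quasi-likelihood test and 0.894 with the robust dispersion and the likelihood ratio test. The unadjusted p was under 0.05 in the second of these tests alone.

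Nr4a1 (also known as Nur77), a rapidly induced nuclear receptor that limits excitatory synapses in pyramidal cells, was at 27.7, 63.6, 39.9 and 52.6 CPM in CNO-treated replicates 1 to 4. In the vehicle replicates it was at 28.6, 32.1, 30.2 and 23.8 CPM. The vehicle samples were close together, 3 of 4 CNO-treated samples were above all of them, and CNO-treated replicate 1 lay among them. Mean levels were 46.0 ± 15.6 and 28.7 ± 3.58 CPM (SD, n = 4 each), a fold change of 1.60 (95% interval 1.15 to 2.23). On the log2 scale this was 0.68 (SE 0.21), with an adjusted p of 0.817 by the quasi-likelihood test, which placed Nr4a1 at rank 60 of 17495 genes by p. The unadjusted p was 0.00939 by that test and 0.114 by the two-sided exact permutation test over the 70 assignments of samples, of which the smallest possible value is 0.0286. The adjusted p was 0.0905 with the robust dispersion and the likelihood ratio test of edgeR and 0.842 with the Wald test of DESeq2. Without CNO-treated replicate 1 the log2 fold change was 0.86, and without CNO-treated replicate 2 it was 0.48. In bulk samples, more RNA per cell and more cells of a type cannot be told apart.

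Markers of vessel cells were read beside Nr4a1. CNO-treated replicate 1, the CNO-treated sample with the lowest Nr4a1, also had the lowest sum of 5 blood vessel markers of all samples, 22.9 TPM, against 48.1 to 68.1 TPM in the other CNO-treated samples and 35.6 to 53.2 TPM in the vehicle samples. The order was not the same elsewhere, since vehicle replicate 2, with the highest Nr4a1 of its group, had the lowest vessel sum of that group (35.6 TPM), and the highest sum of all (68.1 TPM) was in CNO-treated replicate 3, the third of its group for Nr4a1. All 5 of these markers were higher on average in the CNO-treated samples (median log2 fold change 0.30), and none passed an adjusted p of 0.05. The part of vessel cells in the Nr4a1 values was not tested. No model with the vessel markers was fitted. With the level of PV+ markers less that of pyramidal markers added to the model, as for Egr1, the log2 fold change of Nr4a1 was 0.75 (adjusted p = 0.9996).

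Nr4a2 (also known as Nurr1), the regulator that maintains dopamine neurons and also marks claustrum and deep-layer cortical neurons, was at 33.5, 52.5, 49.9 and 45.2 CPM in the CNO-treated replicates. It was at 53.6, 43.7, 57.0 and 56.5 CPM in the vehicle replicates. Vehicle replicates 1, 3 and 4 were above every CNO-treated sample, and vehicle replicate 2 lay among them. Nr4a2 had a log2 fold change of -0.22 (SE 0.14, 95% interval -0.53 to 0.10, adjusted p = 0.817), so the point estimate was opposite to that of Nr4a1. Without CNO-treated replicate 1 it was -0.098, and without vehicle replicate 2 it was -0.31. All 4 markers fixed for layer VIb and claustrum neurons were lower on average in the CNO-treated samples, with a median log2 fold change of -0.19, and none passed an adjusted p of 0.05. Without vehicle replicate 1, 3 of the 4 were lower and the median was -0.12. Their part in the Nr4a2 values was not tested.

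Nr4a3 (also known as Nor-1), the third receptor of the family, was the least abundant member, at 2.95, 3.36, 3.85 and 4.21 CPM in the CNO-treated replicates and 3.06, 3.37, 3.01 and 2.06 CPM in the vehicle replicates. In CPM, CNO-treated replicates 3 and 4 were above the vehicle samples, and replicates 1 and 2 lay within their range. In TPM the samples above were replicates 2 and 3, at 4.28 and 4.71 TPM, against 1.99 to 4.22 TPM with vehicle. Replicate 4, at 3.50 TPM, then lay within the vehicle range. Nr4a3 had a log2 fold change of 0.32 (SE 0.19, 95% interval -0.10 to 0.75, adjusted p = 0.817), and without vehicle replicate 4 it was 0.19. Fitted on log2 of TPM plus 1, it was 0.11.

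**Figure D3:**
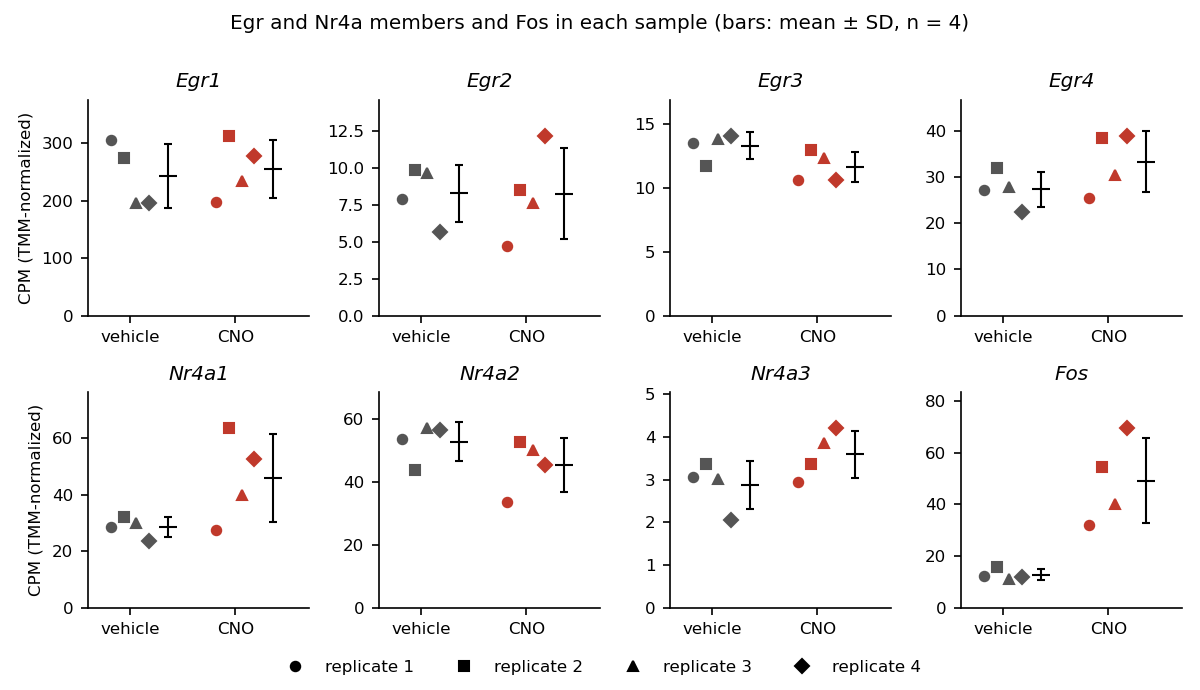
TMM-normalized CPM of the 7 members and of Fos in each sample, with vehicle in grey, CNO-treated in red, a symbol for each replicate number and bars for mean ± SD (n = 4). The Fos values of the groups are separate, from 11.3 to 15.8 CPM with vehicle and from 32.2 to 69.5 CPM with CNO, whereas the groups overlap for each of the 7 members.

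Across the 7 members, 4 were higher and 3 lower in the CNO-treated samples, and the median log2 fold change was 0.07, beside 0.0014 over all genes tested. The number of members called at an adjusted p under 0.05, over 1.5-fold and a mean TPM over 1 was 0 of 7 by the edgeR quasi-likelihood test, where 0% of the 17495 genes were called. It was also 0 of 7 with the robust dispersion and the likelihood ratio test, which called 0.0686% of genes, and 0 of 7 by DESeq2, which called 0.0572%. At an unadjusted p under 0.05, 1 of 7 members was higher with CNO, against 1.44% of all genes, and 0 of 7 were lower, against 2.65%. No member had all 4 CNO-treated values above all 4 vehicle values, as 0.789% of genes had, and none had them all below, as 1.63% had.

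**Figure D4:**
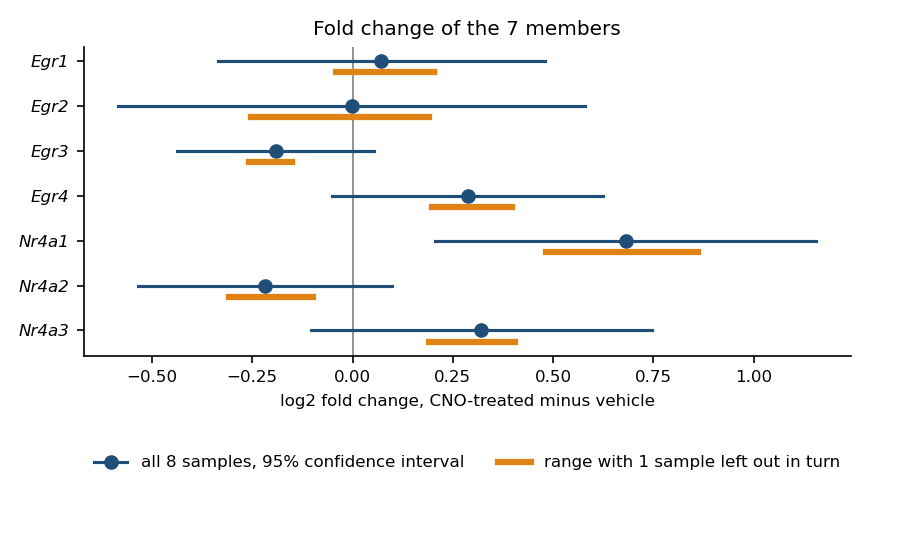
Log2 fold change of each member, CNO-treated minus vehicle (blue point) with its 95% confidence interval (blue line), and the range of values when each of the 8 samples was left out in turn (orange bar). Only the interval of Nr4a1, from 0.21 to 1.15, does not include 0, and the orange bars of Egr1 and Egr2 lie on both sides of 0.

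The order of samples was similar for most members in the CNO-treated group and mixed in the vehicle group. CNO-treated replicate 1 had the lowest value of its group for 6 of the 7 members, the exception being Egr3, and it also had the lowest Fos of that group, 32.2 CPM. CNO-treated replicate 2 had the highest value of the group for 4 members and replicate 4 for 3. Among the vehicle samples, replicate 4 had the lowest value for 5 members, yet the highest for Egr3. Vehicle replicate 2 had the highest value for 4 members (Egr2, Egr4, Nr4a1 and Nr4a3) and the lowest for 2 (Egr3 and Nr4a2). These members are read from the same libraries and are not independent of each other.

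Ratios of CPM within a sample were compared as well, a comparison chosen after the values had been seen. The 21 ratios between members were each compared by two-sided exact permutation with Benjamini-Hochberg adjustment over the 21. Of the 7 members, Nr4a1 had the highest log2 fold change, 0.68, and Nr4a2 the lowest, -0.22. With vehicle, Nr4a1 and Nr4a2 did not follow the same order of samples. The ratio of Nr4a1 to Nr4a2 was 0.827, 1.21, 0.800 and 1.16 in the CNO-treated replicates and 0.534, 0.736, 0.530 and 0.421 in the vehicle replicates. Every CNO-treated sample, including replicate 1, was above every vehicle sample. The difference was 0.85 on the log2 scale, with p = 0.0286 by exact permutation, the smallest value the design allows, and an adjusted value of 0.2. Counting the 7 ratios of Fos described below into the same family would give 0.08, because Fos alone separates the groups.

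The ratio of Nr4a1 to Egr2 was also separate between the groups, by 0.67 on the log2 scale, as was that of Nr4a1 to Egr4, by 0.35 (exact permutation p = 0.0286 and adjusted p = 0.2 each). The Nr4a1 to Egr4 ratio was nearly constant with vehicle, from 1.01 to 1.09, and was 1.09, 1.65, 1.32 and 1.35 in the CNO-treated replicates. The separation at replicate 1 was narrow, 1.092 against 1.088. No other pair among the 21 was separate, and 0 of the 21 passed an adjusted p of 0.05. The 3 separate ratios all contain Nr4a1, so they are not independent of each other. The share of other gene pairs with such a separation was not computed, so it cannot be said whether 3 of 21 is unusual. The ratios of Nr4a1 to Egr1, Egr3 and Nr4a3 overlapped between the groups, with log2 differences of 0.54, 0.82 and 0.29.

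The ratio of Fos to each member is given as a description, since Fos by itself already separated the groups by more than any member differed. The difference between groups ranged from 1.26 on the log2 scale for Fos over Nr4a1 to 2.11 for Fos over Nr4a2. For Fos over Nr4a1, the values were 1.16, 0.855, 1.01 and 1.32 with CNO and 0.438, 0.492, 0.375 and 0.497 with vehicle. Fos itself was at 49.1 ± 16.4 CPM with CNO and 12.9 ± 2.01 CPM with vehicle, a log2 fold change of 1.93 (SE 0.21) with an adjusted p of 0.0520 by the edgeR quasi-likelihood test.

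**Figure D5:**
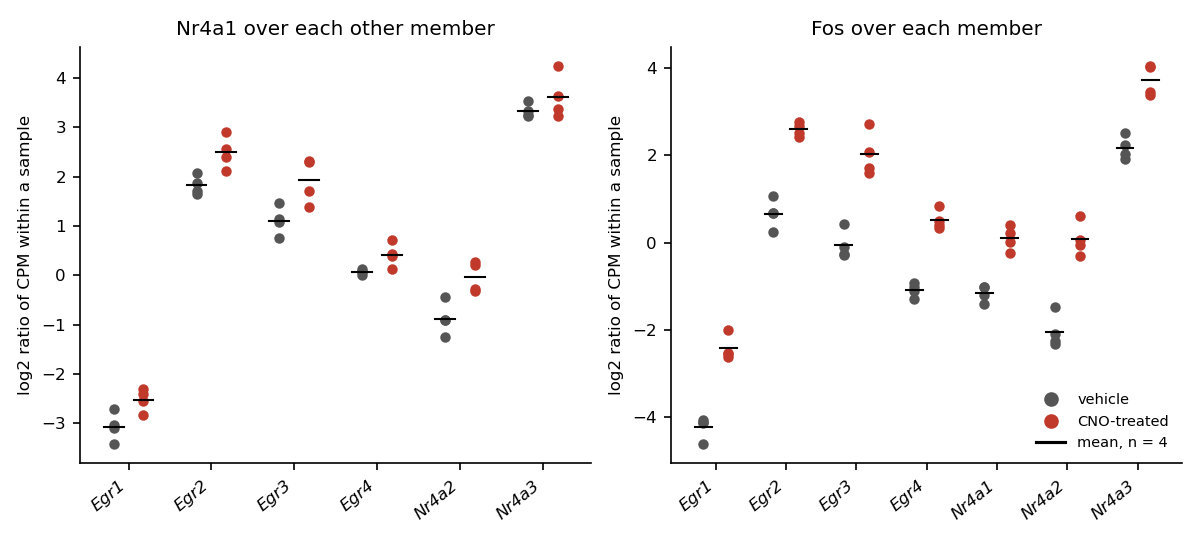
Log2 ratio of CPM within each sample for Nr4a1 over each other member (left) and Fos over each member (right), with vehicle in grey, CNO-treated in red and a black line at the mean of 4 samples. The groups do not overlap for Nr4a1 over Egr2, Egr4 and Nr4a2, nor for any of the 7 ratios of Fos.

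Genes that act with or after these factors were read from lists. The lists were chosen with earlier results of these data known, so counts from them are descriptions. Of 8 corepressors of Egr proteins and genes of the serum response factor pathway, 5 were higher and 3 lower, and their median log2 fold change was 0.027. Of these, Nab1, which encodes a corepressor that binds Egr1 and Egr2, was at 27.1, 26.7, 30.6 and 35.2 CPM with CNO and 18.0, 22.2, 25.8 and 24.8 CPM with vehicle. The CNO-treated samples were all above the vehicle samples, by a narrow margin, as in 0.789% of all genes. The log2 fold change of Nab1 was 0.40 (SE 0.13, adjusted p = 0.817). It was the 1 of 8 genes of this list that was higher at an unadjusted p under 0.05, against 1.44% of all genes. Without vehicle replicate 1, the sample low in PV+ interneuron markers and the lowest for Nab1, the log2 fold change of Nab1 was 0.30. Nab2, the related corepressor that is itself induced by Egr1, had a log2 fold change of 0.16 (adjusted p = 0.817), and Srf, the serum response factor, one of 0.10 (adjusted p = 0.817).

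Among genes known as Egr targets, 4 of 5 passed the filter, Ngfr being the exception, and 2 were higher and 2 lower, with none at an unadjusted p under 0.05. Arc, a synaptic immediate early gene with Egr sites in its promoter, was at 64.3, 261, 140 and 144 CPM with CNO and 95.7, 122, 85.8 and 80.9 CPM with vehicle. The lowest and the highest of the 8 samples were both CNO-treated, and the lowest was again replicate 1. For Arc the log2 fold change was 0.66 (SE 0.32, adjusted p = 0.817). Cdk5r1 (-0.05), Syn1 (0.07) and Gabra4 (-0.19) had small log2 fold changes, none with an adjusted p under 0.05.

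The 10 partners and upstream regulators of Nr4a proteins, among them the retinoid X receptors, the Mef2 factors, Hdac4, Hdac5, Creb1 and Crtc1, were 5 higher and 5 lower, with none at an unadjusted p under 0.05 and a median log2 fold change of -0.0086. Genes known as targets of Nr4a2 in dopamine neurons passed the filter for 5 of 6, without Slc6a3, and 2 of these 5 were higher at an unadjusted p under 0.05, against 1.44% of all genes. Because this list was chosen with earlier results known, that count is a description. Th, the rate-limiting enzyme of dopamine synthesis, was at 6.04, 5.85, 5.997 and 9.68 CPM with CNO and 1.63, 2.24, 2.74 and 1.76 CPM with vehicle. All CNO-treated samples were above all vehicle samples, as in 0.789% of all genes. For Th the log2 fold change was 1.72 (SE 0.22, adjusted p = 0.105), beside -0.22 for Nr4a2 itself and 0.68 for Nr4a1. Ret, the receptor for GDNF, had a log2 fold change of 0.69 (SE 0.25, adjusted p = 0.817), with vehicle replicate 1, the sample low in PV+ interneuron markers, lowest at 2.21 CPM. Without vehicle replicate 1 the log2 fold change of Ret was 0.47, and that of Th was 1.61. Ddc, Slc18a2 and Aldh1a1, which serve the same pathway, had log2 fold changes of -0.16, -0.03 and -0.21.

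Other inducible regulators of transcription were read beside the 7 members. Of 9 such genes, all 9 were higher with CNO, 4 of them at an unadjusted p under 0.05, against 1.44% of all genes, and none at an adjusted one, and the median log2 fold change was 0.53 against 0.07 for the 7 members. The 4 were Fos, Fosb (1.88, adjusted p = 0.123), Atf3 (1.75, adjusted p = 0.817) and Fosl2 (0.69, adjusted p = 0.817). Fosb was at 2.59 to 6.23 CPM with CNO and 0.962 to 1.41 CPM with vehicle. Junb, Npas4, Ier2, Klf4 and Btg2 had log2 fold changes of 0.28, 0.15, 0.20, 0.53 and 0.09, within the range of the 7 members. The study named Fos, Fosb and Fosl2 as upregulated in these same samples, and the list was chosen with earlier results known. Its count and median are therefore a description, and the difference between the lists was not tested.

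The genes whose values over the 8 samples were closest to each member were found by the root mean square difference of centred log2 CPM, among 15166 genes with a mean TPM over 1. For Nr4a1 they were Junb (0.221), Derl3 (0.223) and Trib1 (0.228). For Egr4 they were Zswim3 (0.1002), Sertad1 (0.112) and Gpr3 (0.124), for Egr1 Ppp1r18 (0.113), 4932441J04Rik (0.130) and E130102H24Rik (0.131), and for Egr2 Tgfb1 (0.212), Rilp (0.228) and Prkch (0.231). Egr3 was closest to Nell2 (0.044), Hdac6 (0.044) and Mcm9 (0.045), and Nr4a2 to Svil (0.081), Gjc1 (0.084) and Ptprz1 (0.087). The values nearest to Nr4a3 were those of Gm10480 (0.131), RP24-317M4.3 (0.137) and Gm13534 (0.145). Members that vary little between samples, such as Egr3, have small differences to many genes, so these values compare genes within a member and not between members. No member was among the 3 nearest genes of another member.

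Markers of the cell types in the pulldown were compared as well. All 11 PV+ interneuron markers were higher on average in the CNO-treated samples (median log2 fold change 0.40), and 10 of 11 pyramidal cell markers were lower (median -0.14). Of the glial markers, all 5 microglial (median -0.19), all 5 oligodendrocyte (median -0.23) and 4 of 5 astrocyte markers (median -0.15) were lower. No marker passed an adjusted p of 0.05. Vehicle replicate 1 carried much of the first of these differences. Without it 10 of 11 PV+ interneuron markers were higher, with a median of 0.19, and Pvalb itself was at 0.04 instead of 0.34 on the log2 scale. The microglial markers were then lower in 4 of 5, with a median of -0.097, and the pyramidal cell markers in 10 of 11, with a median of -0.089. The oligodendrocyte markers were still lower in 5 of 5 (median -0.18) and the astrocyte markers in 4 of 5 (median -0.044). The summed pyramidal cell markers were 1472 to 2023 TPM with CNO and 1658 to 2347 TPM with vehicle. Because Egr and Nr4a genes are also used by pyramidal cells, and by glia and vessels to a degree, the share of each member's mRNA that came from PV+ interneurons cannot be read from these samples.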

How the data were processed

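Ribosome-associated mRNA was pulled down from S1 of PvalbFlp/+;Neurod6Cre/+ mice and sequenced in 4 CNO-treated and 4 vehicle samples, with libraries made by a kit that does not mark strand. Per the methods and the submitters' processing notes, the authors used FastQC and Trim Galore on the reads, STAR for alignment to GRCm38 (mm10) and Salmon to quantify genes. The authors deposited estimated counts per gene, not normalized, and TPM, and both were used as deposited. No versions of these tools are given in the sources used here.

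Estimated counts were rounded for edgeR 4.0.16 (R 4.3.3). A gene was left out if it had fewer than 10 counts in at least 4 samples. After TMM scaling, the quasi-likelihood test compared CNO with vehicle in all 8 samples, and p was adjusted by Benjamini-Hochberg over 17495 genes. A gene was called at an adjusted p under 0.05, above 1.5-fold and at a mean TPM above 1, the cut-offs of the methods. The methods name the robust dispersion of edgeR and no test, and a legend of the study names a Wald test, so the robust fit with the likelihood ratio test and DESeq2 1.42.0 were alternatives. Single log2 CPM values used a prior count of 2, and the exact permutation test, two-sided, over 70 assignments was used for ratios and single members. Named genes were the 7 members, for each the 3 genes nearest in log2 CPM, and list genes that a result turns on. Members and lists were chosen with earlier results of these data known. Scripts were tested on simulated data with changed genes. Groups came from the sample labels. Samples of a group are separate pools of mice, each of 4 brains. Gene positions came from GENCODE M21, which holds 45143 of the 45706 identifiers, and promoters from RefSeq. Figures were drawn with matplotlib.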

Additional observations from a re-analysis of the deposited data

Results flagged for a closer look

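None of the 7 Egr and Nr4a genes had a sample far from the other samples of its group. In 32 groups of 4 values examined, the 7 members and 9 marker lists in each treatment group, 2 had a sample far from the rest by Dixon's ratio, where chance alone gives about 1.6. The mean log2 CPM of the PV+ interneuron markers was 5.40 in vehicle replicate 1 and 6.68 to 6.87 in the other vehicle samples, a ratio of 0.873. The mean log2 CPM of 3 VIP interneuron markers was 2.10 in CNO-treated replicate 4 and 2.40 to 2.46 in the other CNO-treated samples, a ratio of 0.830. The part of these samples in the values of the members was not tested beyond leaving each of them out.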

How the results depend on the processing

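No member passed an adjusted p of 0.05 in any of 22 alternative settings, and Egr3, Egr4, Nr4a1 and Nr4a2 kept their direction in all 22. The log2 fold change of Nr4a1 ranged from 0.48 to 0.86 with 1 sample left out. Over all genes, 0 were called by the quasi-likelihood test, 12 with the robust dispersion and likelihood ratio test, 10 with DESeq2, 4 without the filter on low counts, 3 with replicates 1 and 2 against 3 and 4 as a term, 11 with replicates 3 and 4 only, 1 with the adjusted deviances of edgeR 4 (chosen after seeing the data), and 0 to 2 with 1 sample left out, 2 without CNO-treated replicate 1. Members higher at an unadjusted p under 0.05 numbered 1 (1.44% of all genes), but 2 with the robust dispersion (1.84%), 0 with replicates 1 and 2 only (0.83%), 4 with replicates 3 and 4 only (2.96%) and 1 to 2 with 1 sample left out (0.76% to 4.33%), 2 without CNO-treated replicate 1 (1.14%). Members without overlap numbered 0, and 0 to 2 with 1 sample left out: Nr4a1 above without CNO-treated replicate 1 (as 1.54% of all genes), Egr3 and Nr4a2 below without vehicle replicate 2 (as 3.15%). Each of these samples was the only one of its group within the other group's range, so its removal had to give this. Egr2 turned to 0.0092 with DESeq2, 0.0091 with RLE size factors, 0.010 without the filter and 0.37 with replicates 3 and 4 only, and ranged from -0.25 to 0.19 with 1 sample left out. Egr1 ranged from -0.041 to 0.20 with 1 sample left out and was -0.20 with replicates 1 and 2 only, where Nr4a3 was -0.042. Nr4a2 ranged from -0.31 to -0.098 and Nr4a3 from 0.19 to 0.40 with 1 sample left out. With replicates 3 and 4 only, 1 member, Nr4a2 (-0.25), was lower at an unadjusted p under 0.05 by the quasi-likelihood test, against 4.18% of all genes. The cause of these changes was not tested. Same-numbered samples of the groups deviated with correlations of 0.026, -0.030, 0.161 and 0.239, so the numbers were not taken as pairs; with the replicate block the log2 fold change of Nr4a1 was 0.62 (p = 0.0135), and the block gave 0 members called. Depth limits Nr4a3 most, with 102 counts in its lowest sample.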
